A study of Mus musculus with 3 samples.

Results

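The 9 enzymes described here make NADPH in the cytosol and endoplasmic reticulum or carry sugars through the pentose phosphate pathway. They were taken from a fixed list of gene symbols (Pgd, H6pd, Pgls, Rpia, Rpe, Tkt, Taldo1, Me1 and Idh1). All 9 were found on the array, on 10 of its 26423 probes and among 19084 named genes. RNA came from 3 sources, each on 1 Mouse Whole Genome OneArray read in the single dye Cy5. Normal liver was from a female wild type mouse, and the tumor, called HCC here, was a liver tumor of a female Gnmt-/- mouse, which lacks the glycine N-methyltransferase of the methionine cycle. Ymac-1 is a cell line grown out of the liver tumor of an aged Gnmt-/- mouse by the study and cultured in DMEM, so HCC and Ymac-1 share the Gnmt deletion and normal liver does not carry it. The ages of the mice behind the liver and HCC arrays, the passage of the Ymac-1 RNA and the sex of its donor were not given in the labels or methods. The study describes the liver and HCC data as earlier work, while the labels list all 3 arrays together, and whether they were hybridised in the same run is not known here. The line is a single isolate, and the HCC array is bulk tissue of tumor, stromal and blood cells, in which fewer cells of a type and less RNA per cell cannot be told apart. There was 1 array per condition, so values carry no replicate error, differences could not be checked against replicates, and P values were not computed.

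In the pentose phosphate pathway the oxidative branch takes glucose 6-phosphate to ribulose 5-phosphate and reduces NADP+ to NADPH on the way. Its non-oxidative branch interconverts the resulting pentoses with the sugars of glycolysis, in both directions, and so serves nucleotide synthesis or returns carbon to glycolysis. Malic enzyme and cytosolic isocitrate dehydrogenase make NADPH by other routes, and in liver this NADPH pays for fatty acid, sterol and drug metabolism and for the reduction of glutathione.

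Intensities are the linear values the authors deposited, of which 2.68% to 5.59% per array were at or below 0. Values under 50 were set to this floor before the log2 step, calls of higher or lower need a log2 difference of 1 or more in either direction, and a fold against a reading at the floor is a lower bound. Readings ran lower on the liver array than on the other two. For the 7687 genes that passed the floor on every array, the median log2 difference was 0.65 for HCC over normal liver, 0.06 for Ymac-1 over HCC and 0.72 for Ymac-1 over normal liver. The deposited scaling was kept, and each difference was also computed under 4 other scalings, which matter most for HCC against normal liver. Of all genes called in that comparison 95.5% were higher as deposited, 59.4% after quantile normalization and 20.1% with each array divided by its median. For Ymac-1 against HCC these shares were 48.1%, 54.0% and 64.6%, and for Ymac-1 against normal liver 71.2%, 53.6% and 47.7%. Gnmt read 3583 in liver, 15.6 in HCC and 56.1 in the line, and the place of its probe relative to the deletion was not known here. The 9 hepatocyte markers measured summed to 197602 in liver, 282097 in HCC and 2472 in the line. All 9 were lower in the line than in HCC, as were 15.9% of all genes. Alb, Apoa1, Ttr, Pck1, Cps1 and Cyp2e1 were under the floor in Ymac-1.

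The promoters of the 4 enzymes on which the results turn are printed first. As deposited, Pgd, Rpia and Me1 were called higher in the line than in HCC, and Idh1 was the member called lower in the line than in liver. RefSeq promoter windows of the mouse assembly GRCm38.p6 were found for all 9 genes, and the outermost annotated start was among them for 7. Each sequence runs 5′ to 3′ on the gene's own strand, which is the minus strand for all 4, from 250 bases before the start through the 30 bases that begin with it. Capitals mark matches on either strand to TGANNNNGC, the core of the antioxidant response element that Nrf2 binds, and to CCAAT, the CCAAT box bound by NF-Y. They lie at chr4:149166676-149166955 for Pgd, chr6:70792146-70792425 for Rpia, chr9:86695885-86696164 for Me1 and chr1:65186450-65186729 for Idh1.
Pgd promoter: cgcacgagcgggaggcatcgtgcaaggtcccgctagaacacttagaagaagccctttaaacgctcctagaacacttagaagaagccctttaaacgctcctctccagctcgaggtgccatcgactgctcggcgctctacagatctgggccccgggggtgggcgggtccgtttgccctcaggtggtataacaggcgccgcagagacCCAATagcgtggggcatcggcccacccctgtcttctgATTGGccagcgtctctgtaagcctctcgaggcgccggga
Rpia promoter: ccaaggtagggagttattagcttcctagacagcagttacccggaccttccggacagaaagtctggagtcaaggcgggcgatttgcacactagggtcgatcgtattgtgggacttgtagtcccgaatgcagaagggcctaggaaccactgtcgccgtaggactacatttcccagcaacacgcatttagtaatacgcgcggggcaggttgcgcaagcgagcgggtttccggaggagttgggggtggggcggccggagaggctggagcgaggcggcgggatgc
Me1 promoter: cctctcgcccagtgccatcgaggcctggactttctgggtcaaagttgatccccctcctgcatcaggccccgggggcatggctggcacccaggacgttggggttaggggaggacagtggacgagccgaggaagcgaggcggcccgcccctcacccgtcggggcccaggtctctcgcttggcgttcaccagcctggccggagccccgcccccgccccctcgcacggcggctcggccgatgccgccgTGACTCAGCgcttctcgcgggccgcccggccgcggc
Idh1 promoter: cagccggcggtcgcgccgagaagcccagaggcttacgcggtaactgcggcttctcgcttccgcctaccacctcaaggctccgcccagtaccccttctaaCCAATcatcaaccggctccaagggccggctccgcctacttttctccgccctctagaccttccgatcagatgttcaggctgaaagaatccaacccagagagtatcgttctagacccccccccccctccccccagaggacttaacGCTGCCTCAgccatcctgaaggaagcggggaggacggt

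Pgd held 2 CCAAT matches, which began 46 and 9 bases before the start, and no TGANNNNGC, although the window of its second annotated start held 1. Me1 held 1 TGANNNNGC, TGACTCAGC, which began 6 bases before the start, and Idh1 held 1 on the opposite strand, which began 8 bases before the start, together with 1 CCAAT. Neither motif was found in the Rpia window, where the letters stay in lower case. Over the 7 genes with an outermost start, TGANNNNGC was found in 4 (Tkt, Taldo1, Me1 and Idh1) and CCAAT in 3 (Pgd, Taldo1 and Idh1). In all 32851 promoter windows of this length in the table, 39.1% held TGANNNNGC and 36.1% held CCAAT, so matches of this kind are common. TCACNCCAC, a sterol response element that SREBP binds, and CACGTG, the E-box, were in none of the 7 windows, against 1.18% and 6.79% of all windows. GGGCGG, the GC box bound by Sp1, was in all 7, against 34.7% of all windows, and is not marked in capitals by itself. It was absent from the H6pd window and from those of the second annotated starts of Pgd and Me1. The shares of all windows include other starts, while the 7 are outermost starts alone, so the 2 sets are unlike and no enrichment follows. A match is a description of letters, and no binding was measured.

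Pgd, Rpia and Me1 were higher in the line than in HCC, by 3.26-fold, 2.63-fold and 3.42-fold. These were 3 of the 9 enzymes (33.3%), where 14.7% of all 19084 genes were called higher, and 23.7% of the 7687 genes that passed the floor throughout. None of the 9 was called lower in the line than in HCC, where 15.9% of all genes were, and 22.4% of those above the floor on all arrays. Between HCC and normal liver 2 of 9 were higher, Pgd and Taldo1 (22.2%, against 15.9% of all genes), and none was lower (0.749% of all genes). The share of 22.2% lies near the 25.7% of genes passing the floor throughout that were called higher there. Between Ymac-1 and normal liver 4 of 9 were higher, Pgd, Rpia, Taldo1 and Me1 (44.4%, against 23.3% of all genes and 42.1% of those above the floor on all arrays), and 1 of 9 was lower, Idh1 (11.1%, against 9.41% of all genes). All members but Rpe passed the floor on every array, and the 8 measured genes were thus read on both sides of every difference. Shares of the 9 include Rpe, which could not be called, while shares of genes above the floor hold no such gene, so these 2 kinds of share are not quite alike. Across the 9 genes the median log2 difference was 0.46 for HCC over normal liver, 0 for Ymac-1 over HCC and 0.65 for Ymac-1 over normal liver, where the medians of all genes were 0.02, 0 and 0. These medians are shaped by readings at the floor, since Rpe gives the members' 0 and 43.7%, 39.1% and 43.0% of all genes lie at exactly 0. The 8 measured members had medians of 0.58, 0.07 and 0.89, beside 0.65, 0.06 and 0.72 for the 7687 genes above.

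**Figure D1:**
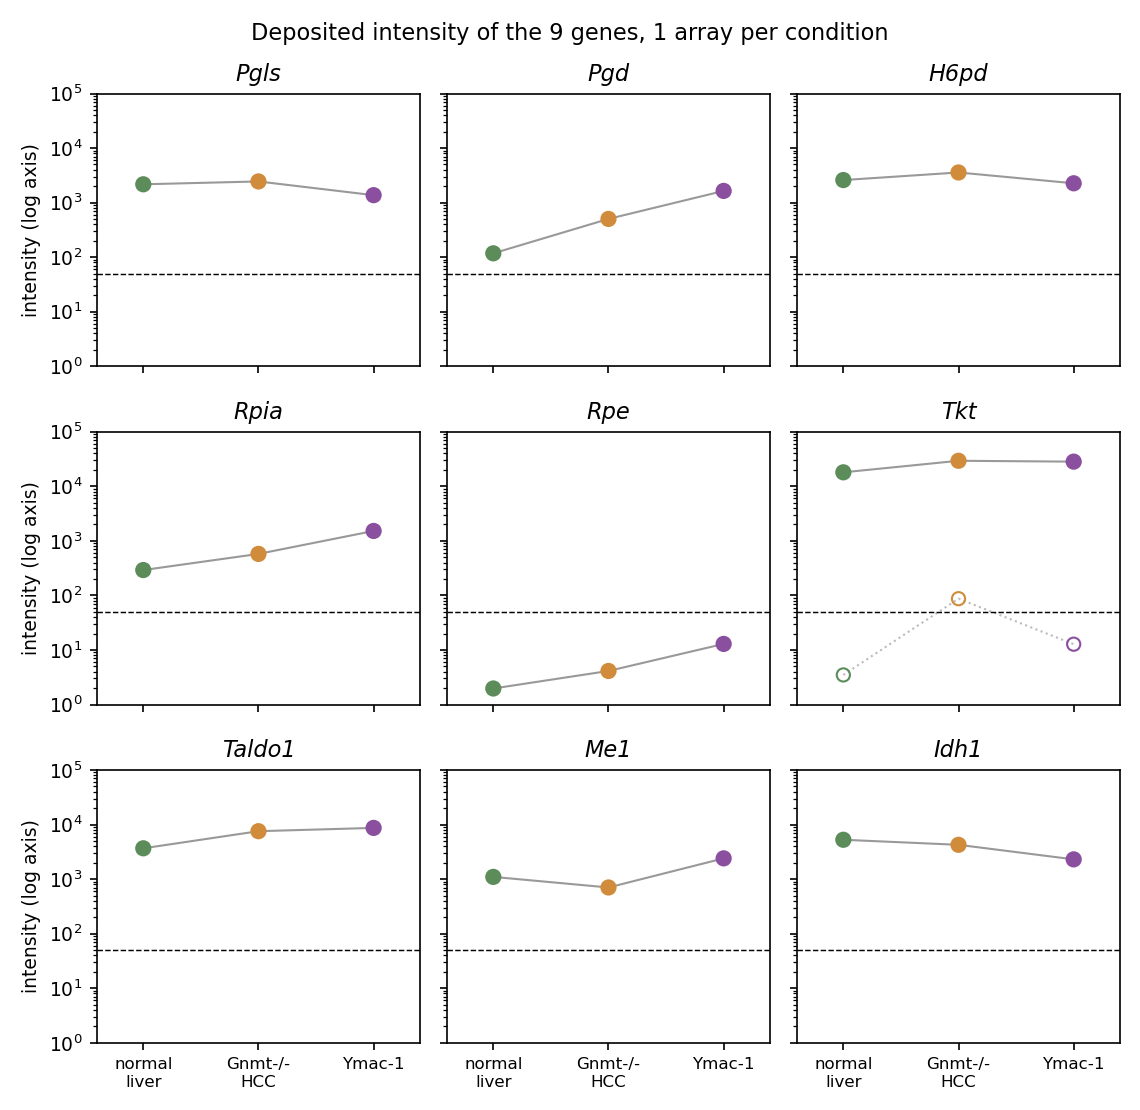
Deposited intensity on a log axis of each of the 9 genes in normal liver, HCC and Ymac-1, with 1 array per point and no error bars; open points are the dimmer Tkt probe and the dashed line is the floor of 50. Pgd and Rpia stepped up from liver to HCC to Ymac-1, Me1 was lowest in HCC, Idh1 was lowest in Ymac-1, and Rpe stayed under the floor on all 3 arrays.

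The cytosolic oxidative branch was represented by Pgls and Pgd, which act in sequence and went apart. Pgls, the lactonase that opens 6-phosphogluconolactone, read 2166 in liver, 2444 in HCC and 1369 in the line. It was highest in HCC as deposited, and its log2 differences were 0.17 for HCC over normal liver, -0.84 for Ymac-1 over HCC and -0.66 for Ymac-1 over normal liver, all short of the threshold. Under the 4 other scalings the HCC step of Pgls was -0.33 to -1.11, and its difference between the line and liver passed the threshold, at -1.30 to -1.46.
Pgd, which decarboxylates 6-phosphogluconate and makes NADPH, read 118 in liver, 503 in HCC and 1639 in the line, so each array was above the one before. Pgd was the only member past the threshold at both steps, a pattern that 700 of 19084 genes shared (3.67%). Its difference of 3.80 between Ymac-1 and normal liver placed it at rank 479 of 19084 genes from the top, and it was 3.01 after quantile normalization and 3.14 after upper quartile scaling, with the call held under all 4 other scalings. The step from liver to HCC was 2.09 as deposited, at rank 502, or 1.44 above the median shift between these arrays. With each array divided by its median that step was 0.81 and lost the call. These ranks and the share of 3.67%, like the ranks of Me1 and Idh1 below, are among all 19084 genes. Many of those lie at exactly 0 through the floor, and no rank was taken among the 7687 genes above it.

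H6pd is the hexose 6-phosphate dehydrogenase of the endoplasmic reticulum, which runs the oxidative steps inside that compartment and supplies NADPH to the glucocorticoid-activating enzyme Hsd11b1. H6pd read 2591 in liver, 3568 in HCC and 2261 in the line, and none of its log2 differences (0.46, -0.66 and -0.20 for HCC over liver, Ymac-1 over HCC and Ymac-1 over liver) passed the threshold. The HCC step turned to -0.04 to -0.82 under the 4 other scalings. Its partners in the same compartment did differ. Hsd11b1 read 49275 in liver, 16211 in HCC and 111 in the line, 146-fold lower in the line than in HCC. Slc37a4, which carries glucose 6-phosphate into the endoplasmic reticulum, read 4792 in liver, 7486 in HCC and 606 in the line, and was 12.4-fold lower in the line than in HCC. G6pc, the glucose 6-phosphatase of liver, read 1093 in liver, 2361 in HCC and 1.08 in the line, and was at least 47.2-fold lower in the line than in HCC. G6pc3, the widely expressed form of that phosphatase, went the other way at 134, 305 and 900.2, which was 2.95-fold higher in the line than in HCC. Of these 4 genes 3 were lower and 1 higher in the line than in HCC, with the same 4 calls under each of the 4 other scalings. Of all genes 15.9% were lower and 14.7% higher there. From HCC to the line the summed hepatocyte markers given above fell with the 3 lower genes. From liver to HCC, as deposited, that sum rose while Hsd11b1 fell. The median difference of the markers there was 0.60, beside the median shift of 0.65 between these arrays. The part of the hepatocyte markers in these differences was not tested.

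In the non-oxidative branch, Rpia was the member called higher in Ymac-1 than in both tissues. Rpia, the isomerase that makes ribose 5-phosphate, read 292 in liver, 576 in HCC and 1518 in the line. As with Pgd, each array read above the one before, and Rpia was 2.63-fold higher in the line than in HCC and 5.21-fold higher than in normal liver. Both of these calls held under the 4 other scalings, at 1.33 to 1.88 over HCC and 1.58 to 1.72 over normal liver on the log2 scale. The step from liver to HCC, 0.98, lay just under the threshold as deposited and only 0.33 above the median shift, and it ranged from -0.30 to 0.25 under the other scalings. Rpia thus belonged, as deposited, to the 2058 genes (10.8%) higher in Ymac-1 than in both tissues with HCC and liver within the threshold, and so did Me1.
Rpe, the epimerase that makes xylulose 5-phosphate, read 1.97 in liver, 4.12 in HCC and 12.9 in the line on its single probe. All 3 readings were under the floor, so no order and no fold is given for it, and its absence from the cells does not follow from them.
Taldo1, transaldolase, read 3667 in liver, 7550 in HCC and 8675 in the line. Its HCC reading was 2.06 times that of liver as deposited, which is 0.39 above the median shift. The 4 other scalings ended that call and the call of Ymac-1 over normal liver, and with each array divided by its median the HCC step turned to -0.24. HCC and Ymac-1 lay 0.20 apart.
Tkt, transketolase, was read by 2 probes that disagree in brightness. The brighter, which stands for the gene, read 18033 in liver, 29359 in HCC and 28306 in the line, and the HCC and Ymac-1 readings lay 0.05 apart on the log2 scale. The other read 3.49, 87.1 and 12.8, above the floor in HCC alone. No Tkt difference passed the threshold on either probe, and the HCC step of 0.70 lay 0.05 above the median of measured genes and ranged from -0.58 to 0.37 under the 4 other scalings. The place of either probe in the transcript was not known here. The paralogs Tktl1 and Tktl2 read at most 4.52 and 4.56 on any array, under the floor.

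**Figure D2:**
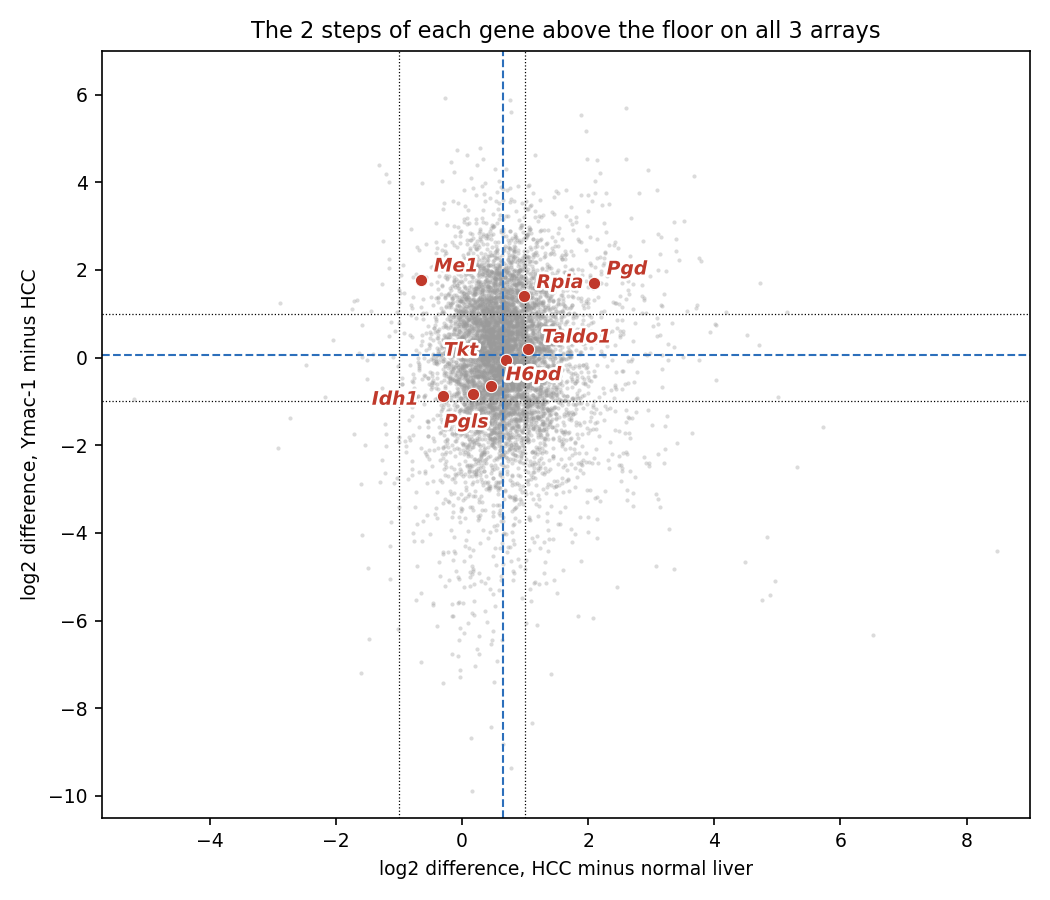
Each grey point is 1 of 7687 genes above the floor on all 3 arrays, by its log2 difference of HCC minus normal liver (horizontal) and of Ymac-1 minus HCC (vertical); red points are the 8 measured enzymes, dotted lines the threshold of 1 and dashed blue lines the medians, 0.65 and 0.06. Pgd lies past the threshold on both axes, Me1 lies left of 0 and above 1, and Tkt sits next to the crossing of the medians.

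Outside the pathway, the cytosolic NADPH sources Me1 and Idh1 were, as deposited, the members whose reading was lower in HCC than in normal liver. Me1, malic enzyme, makes NADPH as it turns malate into pyruvate and is a lipogenic gene of liver. Me1 read 1098 in liver, 702 in HCC and 2399 in the line, and was 3.42-fold higher in the line than in HCC. That call held under all 4 other scalings, at 1.70 to 2.25 on the log2 scale. The HCC step of -0.64 did not pass the threshold as deposited, and 272 of 19084 genes, Me1 among them, had a difference as low or lower. Relative to the median shift the HCC step of Me1 was -1.30. Under each of the 4 other scalings the HCC step of Me1 was called lower, at -1.33 to -1.93. The 1.13 of Ymac-1 over normal liver became 0.33 to 0.46 under those scalings and lost its call.
Idh1, the isocitrate dehydrogenase of cytosol and peroxisomes, read 5259 in liver, 4250 in HCC and 2300 in the line, falling in the order opposite to Pgd. The steps were -0.31 and -0.89, each short of the threshold, and their sum of -1.19 was called, a 2.29-fold lower reading in the line than in liver. That call held under the 4 other scalings, at -1.70 to -1.99. Relative to the median shift its HCC step was -0.96, and it was called lower under 3 of the 4 other scalings. As deposited, 530 genes had an HCC step as low as that of Idh1 or lower.

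**Figure D3:**
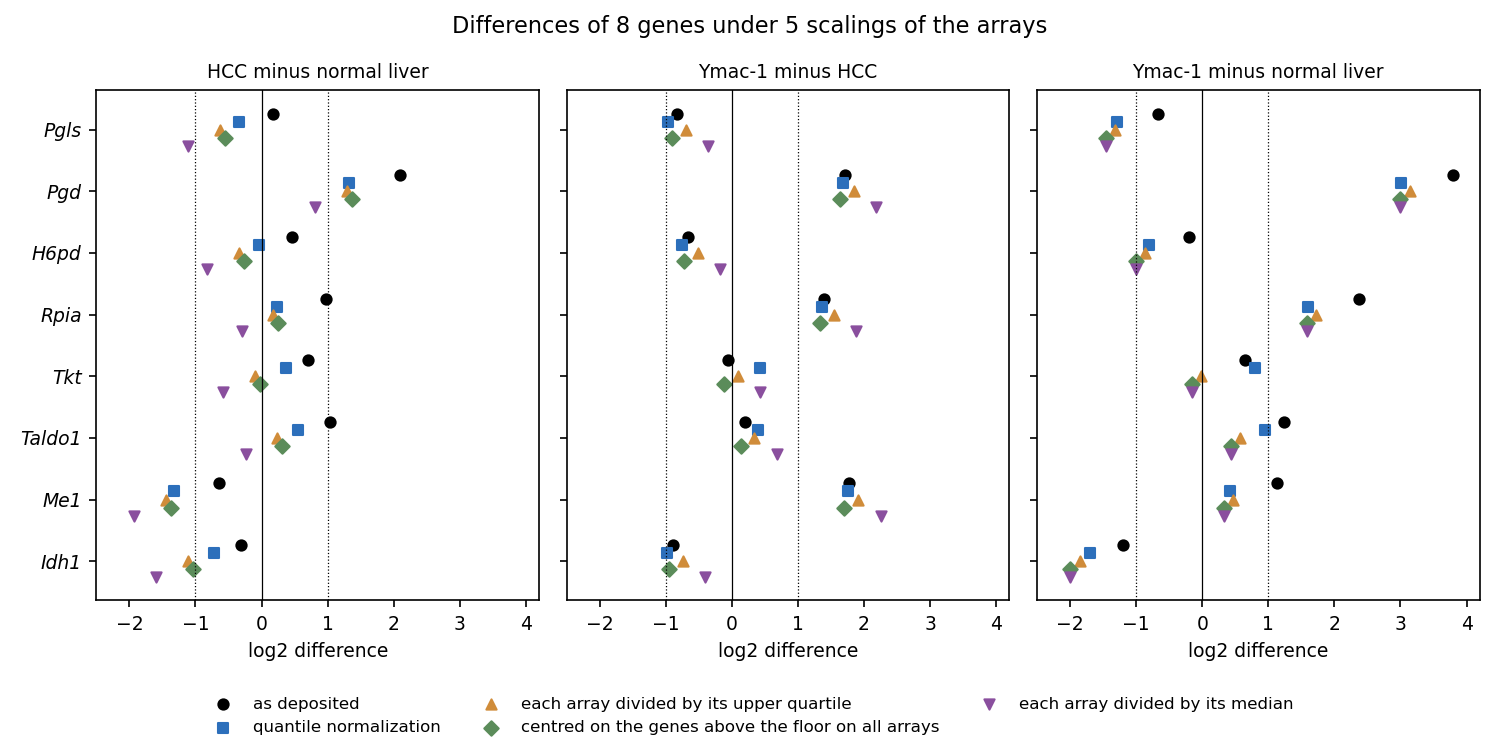
Log2 differences of the 8 measured enzymes for the 3 comparisons, as deposited (black) and under 4 other scalings of the arrays; dotted lines mark the threshold of 1 and each symbol is 1 difference between 2 arrays. For Ymac-1 minus HCC, Pgd, Rpia and Me1 lie above 1 under all 5 scalings, while for HCC minus normal liver every gene moves to the left of its deposited value.

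The levels of 3 members were set beside those of all other genes above the floor on all 3 arrays, by the Euclidean distance of their log2 readings over the 3 arrays. The genes nearest to Pgd were Nfkb2 (distance 0.16) and Tctex1d2 (0.35), those nearest to Me1 were Surf1 (0.21) and Gfm1 (0.31), and those nearest to Idh1 were Suclg1 (0.08) and Trap1 (0.32). Nfkb2 read 128, 538 and 1618 in liver, HCC and the line, and Suclg1 5137, 4127 and 2203. Within a distance of 0.5 there were 9, 7 and 8 genes of 7686 for Pgd, Me1 and Idh1, and with 3 arrays such likeness says little.

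The mitochondrial paralogs of these enzymes did not share their pattern throughout. Idh2, the NADP-dependent isocitrate dehydrogenase of mitochondria, read 5487 in liver, 7035 in HCC and 4623 in the line, with a log2 difference of -0.61 between Ymac-1 and HCC that did not pass the threshold. Me2, a mitochondrial malic enzyme that mainly uses NAD+, read 37.6 in liver, 142 in HCC and 732 in the line, and was 5.16-fold higher in the line than in HCC. Me2 read at least 2.84-fold higher in the tumor than in liver as deposited, where Me1 read lower, and that call of Me2 was kept under 1 of the 4 other scalings. Me3, the NADP-dependent mitochondrial form, was under the floor on all 3 arrays.

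Of 12 genes on the array listed around other NADPH and NADP+ supply, 4 were higher (33.3%) and 3 lower (25%) in the line than in HCC. Over all genes the shares were 14.7% and 15.9%. The median difference of the 12 was 0 with floored genes included and 0.27 over the 10 genes above the floor on at least 1 array. The 4 higher genes were Me2, which mainly uses NAD+, and a trio of mitochondrial folate enzymes, of which Mthfd1l is a synthetase. The 4 are therefore not read as raised NADPH sources. Mthfd2, a methylenetetrahydrofolate dehydrogenase, read 8.60 in liver, 84.3 in HCC and 679 in the line, or 8.06-fold higher in the line than in HCC. Mthfd1l, the formate-releasing synthetase, read 25.9, 312 and 1942 on the brightest of its probes, 6.23-fold higher in the line than in HCC, and Mthfd2l was 5.78-fold higher. Mthfd1, the cytosolic folate enzyme that does make NADPH, read 1789 in liver, 2254 in HCC and 875 in the line, and was 2.58-fold lower in the line than in HCC (-0.88 with each array divided by its median, under the threshold). Glud1, the mitochondrial glutamate dehydrogenase, and Nadk2, the mitochondrial NAD kinase, were 6.72-fold and 2.97-fold lower, whereas the cytosolic kinase Nadk read 8262, 7063 and 6010 and passed no threshold. Mthfd2l, Mthfd1 and Nadk were named after their values were seen.

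Of 13 genes that neighbour the pathway, 3 were higher (23.1%) and 4 lower (30.8%) in the line than in HCC. Over all genes the shares were 14.7% and 15.9%. Of the 13, 2 (Tktl1 and Tktl2) were under the floor throughout. Prps1, which makes the nucleotide precursor phosphoribosyl pyrophosphate, read 1144 in liver, 1338 in HCC and 4374 in the line, and was 3.27-fold higher in the line than in HCC. Prpsap2, a protein associated with that synthetase, was 2.22-fold higher, whereas Prps2 and Prpsap1 of the same family differed by 0.49 and -0.13 on the log2 scale and were not called. Pgm2, which moves phosphate within ribose and deoxyribose, read 62.3, 302 and 966, each array above the one before as with Pgd and Rpia.
Rgn, which in mouse also acts as a gluconolactonase, read 4328 in liver, 2700.3 in HCC and 6.80 in the line, at least 54.0-fold lower in the line than in HCC. Xylb, which phosphorylates xylulose, was 11.3-fold lower. Shpk, the sedoheptulose kinase, was at least 5.45-fold lower and Rbks, the ribokinase, 2.70-fold lower (-0.95 with each array divided by its median, under the threshold). Idnk, the gluconate kinase, was not called, at -0.39. Prps2, Prpsap1, Prpsap2, Shpk, Rbks and Idnk were named after their values were seen. From HCC to the line the hepatocyte markers fell with the 4 lower genes. From liver to HCC, as deposited, their sum rose as Rgn fell, with a median marker difference of 0.60 beside the median shift of 0.65. The part of these markers was not tested.

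Of 8 genes on the array that the pathway shares with glycolysis and gluconeogenesis, 6 passed the floor on at least 1 array. In the line 2 of the 8 were higher (25%) and 2 lower (25%) than in HCC, against 14.7% and 15.9% of all genes. Aldoa, the aldolase of muscle and of many growing cells, read 1808 in liver, 6093 in HCC and 15920.4 in the line, and was 2.61-fold higher in the line than in HCC. Pfkm, a phosphofructokinase, was 2.45-fold higher. Pfkl and Pfkp of the same family were under the floor on all 3 arrays, and were named after their values were seen. Fbp1, the gluconeogenic fructose bisphosphatase of liver, read 14389 in liver, 11551 in HCC and 10.8 in the line, at least 231-fold lower in the line than in HCC. Fbp2 read 104, 102 and 11.6, and its call at -1.02 was kept under 1 of the 4 other scalings. From HCC to the line Fbp1 and Fbp2 fell together with the hepatocyte markers, whose part was not tested.

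Users of NADPH gave 2 higher (15.4%) and 3 lower (23.1%) genes of 13 on the array in Ymac-1 against HCC. The shares of all genes were 14.7% and 15.9%, and 12 of the 13 passed the floor on at least 1 array. Aldh18a1, which spends NADPH in proline synthesis, read 2.42 in liver, 40.3 in HCC and 911 in the line, at least 18.2-fold higher in the line than in HCC. Sqle, squalene epoxidase of sterol synthesis, was 2.23-fold higher. Blvrb, biliverdin reductase B, read 18167, 18653 and 751, and was 24.8-fold lower in the line than in HCC, while Tm7sf2, a sterol reductase, was 3.43-fold lower. The third lower gene, Dhcr7, also a sterol reductase, was named after its values were seen and was 2.36-fold lower (-0.76 with each array divided by its median, under the threshold).

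Regulators known to act on these genes or on the flow through the pathway were divided as well. In the line 2 of 8 were higher (25%) and 3 of 8 lower (37.5%) than in HCC. The shares of all genes were 14.7% and 15.9%, and 7 of the 8 passed the floor on at least 1 array. Tigar, a fructose bisphosphatase that turns glucose 6-phosphate toward pentose synthesis, read 213 in liver, 234 in HCC and 867 in the line, and was 3.71-fold higher in the line than in HCC. Myc, a transcription factor of growing cells, read 42.7, 579 and 1664, or 2.88-fold higher in the line than in HCC. Mlxipl, the glucose-sensing factor ChREBP that drives lipogenic genes of liver, read 2403 in liver, 4213 in HCC and 18.6 in the line, at least 84.3-fold lower in the line than in HCC. Ppara, the fatty acid receptor of liver, was at least 34.0-fold lower. Thrb, a thyroid hormone receptor of liver, read 229, 258 and 42.1, at least 5.16-fold lower in the line than in HCC. From HCC to the line the hepatocyte markers fell with Mlxipl, Ppara and Thrb. From liver to HCC, as deposited, the sum of the markers rose as Ppara fell, with a median marker difference of 0.60 beside the median shift of 0.65. The part of these markers was not tested. Nfe2l2, which encodes Nrf2, read 882 in liver, 1408 in HCC and 2227 in the line, and its difference of 0.66 over HCC passed no threshold. Thrb and Nfe2l2 were named after their values were seen.

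**Figure D4:**
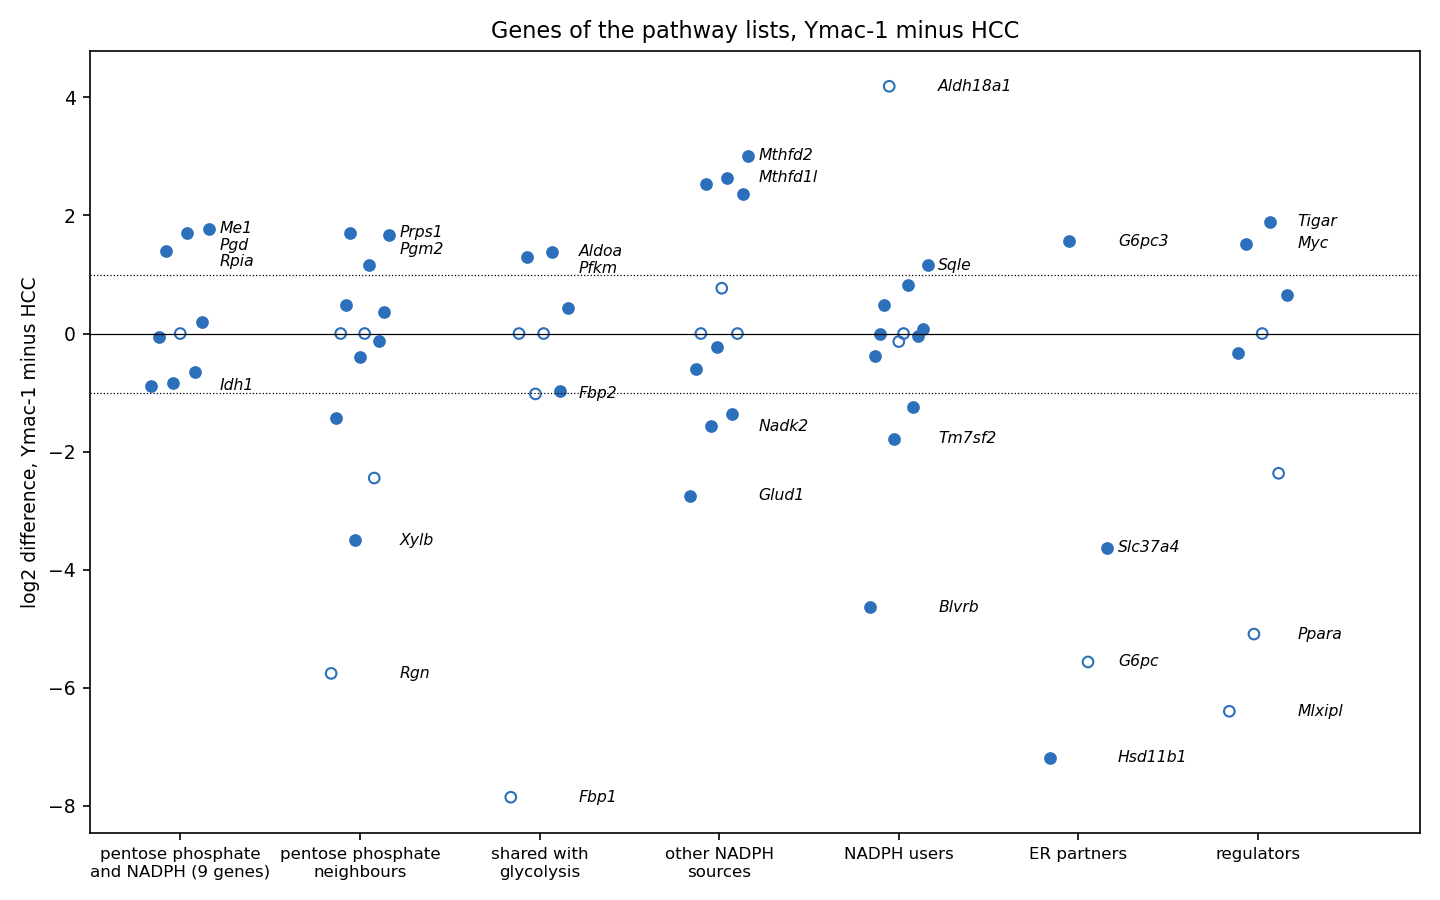
Log2 difference of Ymac-1 minus HCC for the 9 enzymes and for the genes of 6 related lists, 1 point per gene; open points have at least 1 of the 2 readings at or under the floor, so that their size is a lower bound or unknown, and dotted lines mark the threshold of 1. Me1, Pgd and Rpia lie above the threshold with no member of the 9 below it, while each of the 6 lists has genes past the threshold on both sides.

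Markers of other cells differed between the arrays. Their calls are as deposited, and no marker was taken through the 4 other scalings. Of all genes 15.9% were higher in HCC than in liver, and in the line 14.7% were higher and 15.9% lower than in HCC. All 6 macrophage markers were higher in HCC than in liver and lower in the line than in HCC, with summed intensities of 4008 in liver, 11251 in HCC and 896 in the line. Relative to the median shift, Cd68 stood at 2.24 in HCC over liver and the others at 0.35 to 0.83, under the threshold. The 2 erythroid markers summed to 1118, 11710 and 24.2, and the 5 endothelial markers to 1458, 4259 and 72.0, with all 5 under the floor in Ymac-1. Of the 5 endothelial markers 3 were called higher in HCC than in liver. Lyve1 rose most, from 61.0 in liver to 1850 in HCC, while Kdr read 402 and 319. The 6 stellate cell and fibroblast markers summed to 13929, 31150.4 and 101, of which Dcn alone gave 13481, 29180 and 90.7. Of these 6, 4 were higher in HCC than in liver and 4 were lower in the line than in HCC, and Col1a1 and Col3a1 were under the floor on all arrays. Relative to the median shift, the HCC steps of Lum and Pdgfrb were 1.49 and 1.15, and those of Dcn and Col1a2 were 0.46 each. Of 4 markers of dividing cells, 3 were higher in the line than in HCC, with sums of 35.3, 396 and 8645, which is the order of the arrays for Pgd and Rpia. Bile duct markers summed to 159, 684 and 14649, and 3 of 4 were higher in the line than in HCC. Krt19 at 7891 and Krt7 at 6382 made up most of the sum in the line. The remaining marker, Epcam, was lower in the line, at 382 in HCC and 0.54 in Ymac-1. Of 2 neutrophil markers 1 was higher in HCC than in liver, with sums of 151, 2431 and 3.48. None of 4 adipocyte markers passed the threshold, and Adipoq, Lep and Retn were under the floor on all arrays. The part of these cells in the differences of the 9 enzymes was not tested.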

How the data were processed

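RNA of normal liver, Gnmt-/- HCC and Ymac-1 cells (1 array each) was amplified from 1 µg total RNA and labelled with Cy5 by the authors. The deposited values are linear intensities, some below 0 as after background subtraction. How arrays were scanned, corrected for background and scaled to each other was not given in the sources used here. Precision is limited by the number of arrays. Symbols came from the platform annotation, with 21876 probes named and 4547 unnamed, and all 9 members matched the gene table of GRCm38.p6.

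Intensities under 50 were set to 50 before log2, and the probe with the highest mean log2 stood for a gene. The methods' ratio of log2 1 was used as the threshold, without their P value, which 1 array per condition cannot give. Text names all members, the 2 highest and 2 lowest genes per list of Ymac-1 minus HCC, paralogs and nearest genes. The members, lists and rules were chosen with earlier results of these data known. Alternatives were 4 scalings, floors of 20 and 100, the mean of probes, other thresholds and a filter on dim genes. The scalings, floors and mean of probes were applied to the lists after seeing the data. The rules were tested on simulated data. Python 3.11.15, pandas 2.3.3, numpy 2.4.6 and matplotlib 3.10.9 were used.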

Additional observations from a re-analysis of the deposited data

How the results depend on the processing

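The calls of Pgd, Rpia and Me1 in Ymac-1 over HCC and the count of 3 higher members held under all 4 scalings. They also stood under both floors, the mean of probes and the filter on dim genes, but these settings could not test the 3 calls. Each of the 3 genes has 1 probe and read above every floor used on all arrays. A log2 threshold of 1.5 left 2 higher members, and at 1.5-fold 3 members were also lower. For HCC over normal liver the 2 higher members became 1 after quantile normalization, upper quartile scaling, centring on the genes above the floor or a threshold of 1.5, 0 with each array divided by its median and 4 at 1.5-fold. The 0 lower members became 1 after quantile normalization or at 1.5-fold, 2 after upper quartile scaling or centring, and 3 with each array divided by its median. For Ymac-1 over normal liver the 4 higher members became 2 under each of the 4 scalings and at a threshold of 1.5, and the 1 lower member became 2 under the 4 scalings and at 1.5-fold and 0 at a threshold of 1.5. Of 189 differences of single members under the alternatives, 164 kept their direction of call or stayed uncalled. The 1 called value that reversed was Taldo1 in HCC over normal liver, at -0.24 with each array divided by its median. All changes fell under the 4 scalings. Neither floor could change a member, since the measured members read above both floors on every array and Rpe below both. The mean of probes could change only Tkt, the member with more than 1 probe. The 164 therefore include values that could not change. The 6 list counts for Ymac-1 over HCC stayed within 1.5 times. The cause of the differences between scalings was not tested. With 1 array per condition no array could be left out, and no paired analysis was possible because the labels give no replicate numbers. Readings near the floor, such as those of Pgd in normal liver, of Rpe and of the dimmer Tkt probe, limit what can be said of low genes.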
